A study of Mus musculus with 18 samples.

Results

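The aldehyde dehydrogenase Aldh3a2 and 9 of its relatives were followed in mouse liver under 2 high-fat diets. They were every gene of a fixed list of 10 symbols (Aldh3a2, Aldh2, Aldh1b1, Aldh1l1, Aldh4a1, Aldh5a1, Aldh6a1, Aldh7a1, Aldh8a1 and Aldh9a1), and all non-control probes carrying one of those names were taken, which gave 12 of the 39429 probes on the array. Aldh6a1 and Aldh7a1 had 2 probes each. The samples were livers of male C57BL/6J mice, an inbred strain without an engineered allele in the labels. One group of 8 mice had eaten a high-fat diet made with linseed oil for 5 weeks, and the other group of 10 mice the same length of a diet made with palm oil. All mice changed to these diets at 8 weeks of age after a week on standard pellets, and were 13 weeks old at sampling. Both diets gave 51.1% of energy as lipid, 32.1% as carbohydrate and 16.7% as protein, and no low-fat group was analysed here. Linseed fat held 66.7% polyunsaturated fatty acids (49.7% alpha-linolenic acid), 22.5% monounsaturated and 9.7% saturated, while palm fat held 8.8% polyunsaturated, 34.8% monounsaturated and 55.6% saturated.

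Aldehyde dehydrogenases oxidise aldehydes, which are reactive and toxic, to carboxylic acids with NAD or NADP as electron acceptor. The liver carries many of them, each on its own step. Aldh3a2 clears long-chain fatty aldehydes in the endoplasmic reticulum and peroxisomes, and Aldh2 and Aldh1b1 clear acetaldehyde and products of lipid peroxidation in mitochondria. The others of the list act in the breakdown of an amino acid or in carnitine or folate metabolism. In humans, loss of ALDH3A2 causes Sjögren-Larsson syndrome, in which fatty aldehydes and fatty alcohols accumulate. In rodent liver Aldh3a2 is known as a gene that activators of the fatty acid receptor PPAR-alpha induce.

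Each liver had its own 1-colour array, 18 in all, on 5 slides that each held both diets. The headers of the 3 arrays of slide 1 carry no barcode, and that these arrays share a slide is an assumption; the other 4 slides are those of the barcodes. Between 17258 and 22445 probes per array were well above background, and the image software marked 238 to 1703 spots per array as non-uniform or as outliers. Of the 216 spots of the 12 aldehyde dehydrogenase probes, 32 were marked, 31 of them on the 7 arrays of slides 4 and 5, and none was saturated. All 7 hepatocyte markers (Alb, Apoa1, Ttr, Serpina1a, Cps1, Ass1 and Tat) were well above background on every array, and none of the 6 tested with marked spots left out passed the test. A level below is the log2 signal of a probe over the 75th percentile of its own array, so a level of 0 is brighter than most spots and a difference of 1 is a doubling. Levels of different probes were not compared, since probes differ in brightness for reasons other than RNA amount. In bulk liver, fewer cells of a type and less RNA per cell cannot be told apart.

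The array reads each gene through 60-base probes, shown here for Aldh3a2, whose level the main result rests on, and for Aldh2, the best-known member.
Aldh3a2 probe: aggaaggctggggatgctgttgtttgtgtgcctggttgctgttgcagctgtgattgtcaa
Aldh2 probe: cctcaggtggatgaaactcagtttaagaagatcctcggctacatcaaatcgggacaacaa
The Aldh3a2 probe lies on the minus strand at chr11:61062365-61062424 of mm9, the build of the file headers, as an unbroken run of 60 bases, and 2 of its 3 reading frames hold no stop codon. The Aldh2 probe also leaves 2 frames open, and its 60 bases are spread over 554 bases of the minus strand at chr5:122022137-122022690. An array probe reports only transcripts that contain its own stretch, so isoforms without it would go unseen.

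Aldh3a2 rose on linseed oil, and it alone among the 10 genes passed the test. On linseed oil its level was 2.09 on the lowest array, 2.30 at the median and 2.73 on the highest, against 0.96, 1.38 and 2.01 on palm oil. The groups did not overlap: the lowest linseed array stood 0.083 above the highest palm array. The linseed mean was 2.37 ± 0.24 (SD, n = 8) and the palm mean 1.43 ± 0.35 (SD, n = 10), a difference of 0.94 ± 0.14 (SE), or 1.92-fold (limma, adjusted p = 0.00218). The probe was well above background on all 18 arrays and none of its spots was marked, and with marked spots of other genes kept the adjusted p was 0.00233. Of the 7 members that could be tested with marked spots left out 1 passed, where 0.759% of all 15951 genes did (0.57% higher and 0.188% lower on linseed oil). With marked spots kept, all 10 could be tested and 1 passed, where 0.901% of 16544 genes did (0.683% higher and 0.218% lower). Aldh3a2 stood 14th by p-value and 47th by size of rise among all genes tested with marked spots left out, and 13th and 51st with them kept. With marked spots kept, 28 genes (0.169%) had every linseed array above every palm array (0.0544% had every one below, and no member did). The plot of the levels by array shows Aldh3a2 as the one panel with separate groups.

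**Figure D1:**
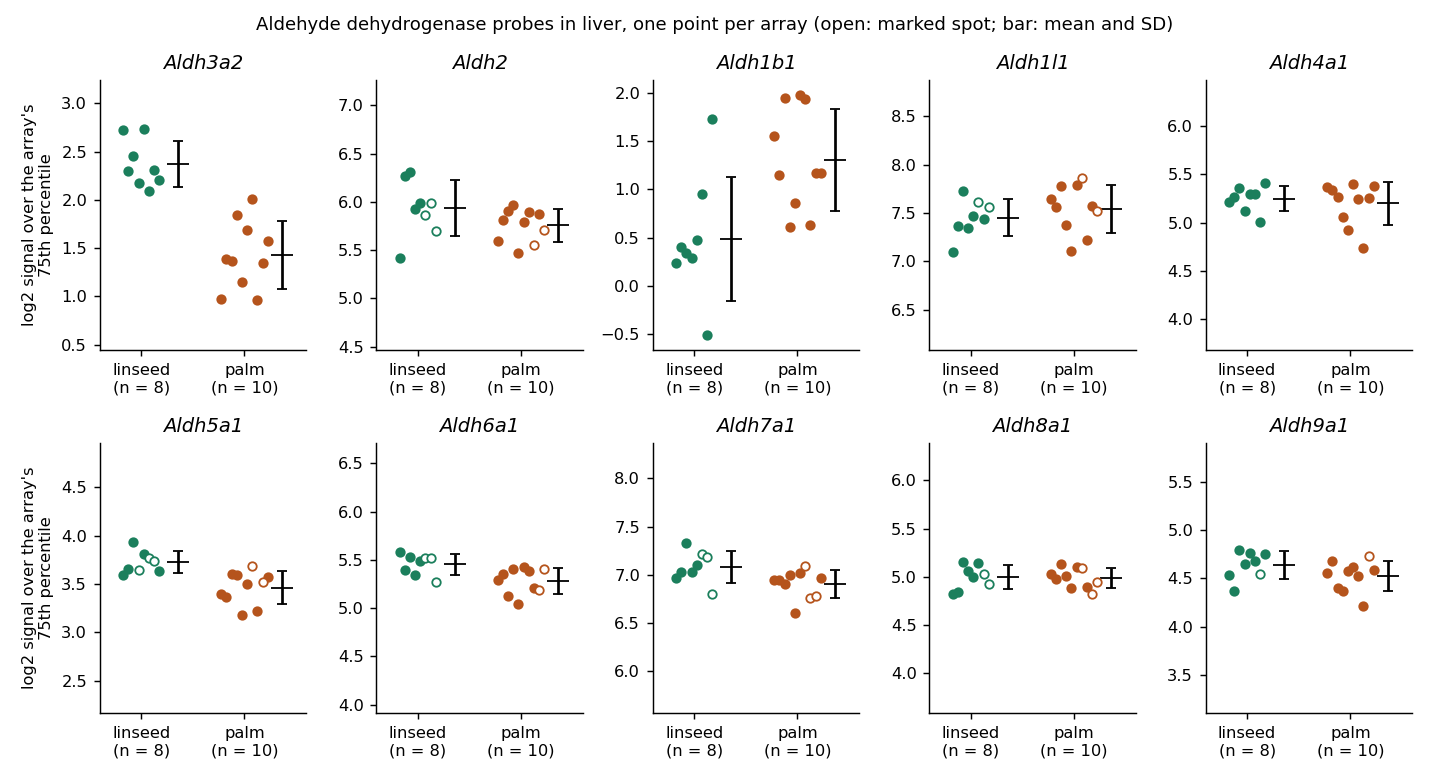
Level of each aldehyde dehydrogenase on each array (log2 signal over the array's 75th percentile; the probe that stands for the gene with marked spots kept), with 8 linseed arrays left of 10 palm arrays. Open points are marked spots, and bars give the mean and SD; Aldh3a2 has linseed arrays from 2.09 to 2.73 and palm arrays from 0.96 to 2.01, and in the other panels the groups overlap.

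The rise of Aldh3a2 was present on the 4 slides with a barcode and among the 3 arrays taken as slide 1. The difference between the diet means was 1.31 on slide 1, 1.33 on slide 2, 0.71 on slide 3, 0.72 on slide 4 and 0.75 on slide 5. Slides 1 and 5 held 1 linseed and 2 palm arrays, and the others 2 of each, so each value rests on 3 or 4 arrays. With slide as a fixed block, the assumed slide 1 included, the difference was 0.95 ± 0.15 (limma, adjusted p = 0.01). On linseed oil the highest arrays were replicates 1 and 5, at 2.72 and 2.73. On palm oil the lowest were replicates 8 and 1, at 0.96 and 0.97, and the highest was replicate 7, at 2.01, on slide 4, where the linseed arrays read 2.09 and 2.31. The plot of values on each slide shows the narrowest separation there.

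**Figure D2:**
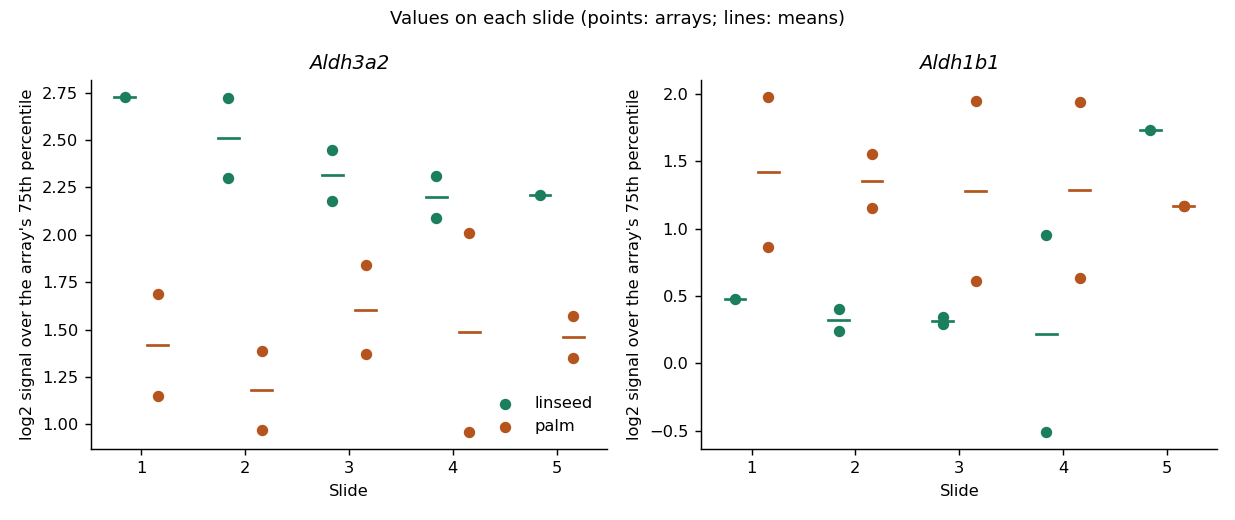
Levels of Aldh3a2 and Aldh1b1 on each of the 5 slides (log2 signal over the array's 75th percentile), linseed left of palm, with points for arrays and short lines for means; slide 1 is an assumed grouping of 3 arrays without a barcode. Aldh3a2 was higher on linseed oil on all 5, by 0.71 to 1.33, and Aldh1b1 was lower on slides 1 to 4 and higher on slide 5.

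The genes that make the substrates of Aldh3a2 were followed as a list of 18 that form fatty aldehydes and fatty alcohols or the omega-hydroxy fatty acids that lead to them. Of the 12 tested with marked spots left out, 3 rose and 0 fell, where 0.57% of all genes rose and 0.188% fell. The median difference of the 12 was 0.11, against −0.0038 for all genes. All 3 were cytochromes of the Cyp4a family, which hydroxylate fatty acids at the terminal carbon. Cyp4a10 had levels of 3.12, 4.29 and 4.55 on linseed oil (lowest, median, highest), against 1.56, 2.67 and 3.23 on palm oil, a difference of 1.59 ± 0.23 (limma, adjusted p = 0.00218). Its groups overlapped only at their edges, with the lowest linseed array under the highest palm array. Cyp4a31 differed by 1.44 ± 0.21 and Cyp4a32 by 1.31 ± 0.20 (limma, adjusted p = 0.00218 and 0.00302). Cyp4a10 and Cyp4a31 have 3 probes each, and with marked spots kept a brighter probe stood for each gene. Those probes differed by 1.57 ± 0.27 for Cyp4a10 and 1.59 ± 0.27 for Cyp4a31 (limma, adjusted p = 0.0062 and 0.00669). Cyp4a14 could be tested only with marked spots kept, and read 6.83, 7.68 and 8.26 on linseed oil, against 3.29, 4.65 and 6.59 on palm oil. Its groups did not overlap, and the difference was 2.92 ± 0.34 (limma, adjusted p = 0.000205). These genes are close paralogs, and whether their probes share signal was not tested.

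The other genes of that list did not pass, with marked spots left out or kept. Among the other cytochromes, Cyp4f14 could be tested only with marked spots kept, and differed by −0.32 ± 0.091 (limma, adjusted p = 0.135). Cyp4a12a and Cyp4a12b differed by 0.45 ± 0.25 and 0.33 ± 0.27. Differences of Cyp4f13, Cyp4f15, Cyp4f17, Cyp4f18 and Cyp4v3 ran from −0.085 to 0.08. Sgpl1, the sphingosine phosphate lyase that releases hexadecenal, differed by −0.063 ± 0.084, and Agmo, which cleaves ether lipids to fatty aldehydes, by 0.15 ± 0.094. Phyh and Hacl1, which act in sequence in the peroxisomal alpha-oxidation of phytanic acid that ends in the aldehyde pristanal, differed by 0.058 ± 0.068 and 0.32 ± 0.11 with marked spots kept (limma, adjusted p = 0.836 and 0.252). Far1 and Far2, the reductases that make fatty alcohols, were well above background on no array. In 2 alternative settings 5 genes of the list were called: slide as a fixed block with marked spots kept, and the authors' table.

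Other enzymes that remove aldehydes formed a list of 16, of which 13 were tested. Of these 2 rose and 0 fell, where 0.57% of all genes rose and 0.188% fell. Aox1, an aldehyde oxidase that works without NAD, had levels of 2.79, 3.28 and 3.43 on linseed oil, against 2.14, 2.63 and 3.13 on palm oil, a difference of 0.62 ± 0.12 (limma, adjusted p = 0.0165). Dhrs4, a peroxisomal carbonyl reductase, had levels of 2.90, 3.41 and 3.57 on linseed oil, against 2.55, 2.84 and 3.23 on palm oil, a difference of 0.50 ± 0.10 (limma, adjusted p = 0.032). In both genes the groups overlapped. The call of Aox1 was kept in 29 of 34 alternative settings and that of Dhrs4 in 20 of 34, and each was lost, among others, when slide 1 was left out (adjusted p = 0.134 for Aox1 and 0.219 for Dhrs4).

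The list of 11 further aldehyde dehydrogenases on the array had no called gene among 5 tested with marked spots left out or 6 tested with them kept. Aldh1a1, the cytosolic retinaldehyde dehydrogenase, could be tested only with marked spots kept. It read 7.22, 7.48 and 7.96 on linseed oil, against 6.65, 7.25 and 7.57 on palm oil, and the difference of 0.34 ± 0.13 did not pass (limma, adjusted p = 0.312). Aldh16a1, the member with the smallest p when marked spots were left out, differed by −0.08 ± 0.078. Aldh3a1 and Aldh3b1, relatives of Aldh3a2 in the same family of the gene nomenclature, differed by −0.14 ± 0.17 and 0.13 ± 0.15. Aldh1l2, Aldh3b2 and Aldh18a1 were well above background on no array, Aldh1a2 on 1 linseed and 1 palm array, and Aldh1a3 on 1 linseed array.

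Aldh1b1 and Aldh2, the mitochondrial enzymes for acetaldehyde, gave differences of opposite sign, and neither passed. Aldh1b1, read on chromosome 4 (chr4:45816960-45817019, plus strand, mm9), had levels of −0.51, 0.37 and 1.73 on linseed oil, against 0.61, 1.17 and 1.98 on palm oil. Of the 8 linseed arrays 6 lay below the lowest palm array, while replicate 8 at 1.73 lay inside the upper part of the palm range and replicate 6 at 0.95 inside its lower part. The means were 0.49 ± 0.64 on linseed oil (SD, n = 8) and 1.30 ± 0.53 on palm oil (SD, n = 10), a difference of −0.81 ± 0.26, or 1.76-fold lower (limma, unadjusted p = 0.00537, adjusted p = 0.215). Aldh1b1 had the widest spread among the probes that stand for the 10 genes. Its difference was −0.94, −1.04, −0.97 and −1.07 on slides 1 to 4 and 0.56 on slide 5, whose single linseed array is replicate 8. Without that array the difference was −0.99 (limma, adjusted p = 0.0462), which passes.

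Aldh2 had too many marked spots to be tested without them, with 3 of 8 linseed spots and 2 of 10 palm spots marked. With marked spots kept its levels were 5.42, 5.96 and 6.31 on linseed oil, against 5.47, 5.80 and 5.97 on palm oil. The groups overlapped over most of their range, with linseed replicate 1 below every palm array and 4 linseed arrays above all of them. The means were 5.93 ± 0.29 on linseed oil (SD, n = 8) and 5.76 ± 0.17 on palm oil (SD, n = 10), a difference of 0.18 ± 0.11 (limma, adjusted p = 0.606). Of 5 genes tested among 8 of ethanol and acetaldehyde metabolism none was called. Adh5, the alcohol dehydrogenase that also clears formaldehyde, had the smallest p among them and differed by −0.11 ± 0.078. Cyp2e1, the ethanol-oxidising cytochrome, differed by 0.18 ± 0.12, and Acss2, which turns acetate into acetyl-CoA, by −0.36 ± 0.25.

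Several members finish a step of amino acid breakdown, and none of them passed. Aldh5a1, the succinic semialdehyde dehydrogenase of the route that degrades the neurotransmitter GABA (chr13:25003412-25003471, minus strand, mm9), came nearest. It was tested with marked spots kept, and its levels were 3.59, 3.70 and 3.94 on linseed oil, against 3.18, 3.51 and 3.69 on palm oil. All 8 linseed arrays lay above the palm median and 4 above every palm array. The means were 3.73 ± 0.11 on linseed oil (SD, n = 8) and 3.46 ± 0.17 on palm oil (SD, n = 10), a difference of 0.26 ± 0.075 (limma, unadjusted p = 0.00241, adjusted p = 0.133). The difference was positive on the 4 slides with a barcode, between 0.098 and 0.30, and was 0.47 among the 3 arrays taken as slide 1. In the GABA list only Slc6a13, a GABA transporter of liver, was testable with marked spots left out, and it differed by 0.096 ± 0.12. Abat, the GABA transaminase that works just before Aldh5a1, differed by 0.10 ± 0.14 with marked spots kept.

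Aldh6a1, the methylmalonate semialdehyde dehydrogenase of valine and thymine breakdown, was read by 2 probes on the minus strand of chromosome 12 (chr12:85771835-85771894 and chr12:85772801-85772860, mm9). The brighter probe, testable only with marked spots kept, had levels of 5.27, 5.50 and 5.58 on linseed oil, against 5.04, 5.32 and 5.43 on palm oil, and differed by 0.17 ± 0.066 (limma, unadjusted p = 0.0179, adjusted p = 0.332). The dimmer probe, which stood for the gene when marked spots were left out, had levels of 0.47, 0.90 and 1.41 on linseed oil, against 0.26, 0.74 and 1.16 on palm oil, and differed by 0.21 ± 0.13 (limma, adjusted p = 0.64). Both probes gave a positive difference with overlapping groups. None of 9 tested genes of valine catabolism passed, and their median difference was 0.045. Bcat2, the transaminase of the first step, had the smallest p among them and differed by 0.12 ± 0.082.

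Aldh7a1, which oxidises the semialdehyde of lysine breakdown and also betaine aldehyde, has 2 probes on chromosome 18. The brighter one was tested with marked spots kept, and its levels were 6.80, 7.07 and 7.33 on linseed oil, against 6.60, 6.95 and 7.09 on palm oil. The groups overlapped, with 4 linseed arrays above every palm array, and the difference was 0.18 ± 0.078 (limma, unadjusted p = 0.0314, adjusted p = 0.406). The dimmer probe was well above background on 3 linseed and 4 palm arrays and was not tested. In the lysine list neither of 2 tested genes passed, and Gcdh, the glutaryl-CoA dehydrogenase, differed by 0.17 ± 0.098. In the choline list neither of 2 passed, and Bhmt, the methyltransferase that uses betaine, differed by −0.39 ± 0.15 (limma, adjusted p = 0.37).

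Aldh4a1, the mitochondrial enzyme that turns the proline intermediate pyrroline-5-carboxylate into glutamate (chr4:139205420-139205479, plus strand, mm9), had levels of 5.01, 5.28 and 5.41 on linseed oil, against 4.74, 5.26 and 5.40 on palm oil. The medians nearly coincided and the difference was 0.049 ± 0.091 (limma, adjusted p = 0.908). None of 5 tested genes of proline and hydroxyproline catabolism passed. Aldh8a1, the aminomuconic semialdehyde dehydrogenase of the kynurenine pathway of tryptophan (chr10:21116106-21116165, plus strand, mm9), had levels of 4.82, 5.03 and 5.15 over the 6 linseed arrays with an unmarked spot, against 4.88, 5.01 and 5.13 over 7 palm arrays. Its difference of 0.00069 ± 0.08 (limma, adjusted p = 0.999) was the smallest in size among the 7 members tested with marked spots left out, and its sign turned in 11 of 27 alternatives. None of 7 tested genes of tryptophan catabolism passed, and Afmid, the kynurenine formamidase, had the smallest p among them, with a difference of 0.19 ± 0.095.

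Aldh9a1 and Aldh1l1 serve carnitine and folate metabolism. Aldh9a1, which makes butyrobetaine, the direct precursor of carnitine (chr1:169298245-169298304, plus strand, mm9), had levels of 4.37, 4.68 and 4.79 over 7 linseed arrays, against 4.21, 4.55 and 4.68 over 9 palm arrays. The groups overlapped and the difference was 0.14 ± 0.081 (limma, adjusted p = 0.597). Among 3 tested genes of carnitine synthesis and transport 1 rose, Slc25a20, where 0.57% of all genes did. Slc25a20, the mitochondrial carnitine-acylcarnitine carrier, read 1.51, 1.84 and 2.09 on linseed oil, against 1.03, 1.37 and 1.66 on palm oil. Its difference was 0.45 ± 0.09 (limma, adjusted p = 0.0246). Its groups overlapped, and the call was kept in 26 of 34 alternative settings; it was lost, among others, without slide 1 (adjusted p = 0.171) and without linseed replicate 3, 5 or 7 (0.0525 to 0.0575). Slc22a5, the carnitine importer of the plasma membrane, differed by 0.54 ± 0.19 and did not pass (limma, adjusted p = 0.279). Tmlhe, the first enzyme of carnitine synthesis, differed by 0.043 ± 0.17, and Bbox1, the last, by 0.13 ± 0.052 with marked spots kept (limma, adjusted p = 0.334).

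Aldh1l1, the cytosolic formyltetrahydrofolate dehydrogenase (chr6:90549091-90549150, plus strand, mm9), had levels of 7.10, 7.40 and 7.73 over 6 linseed arrays, against 7.11, 7.56 and 7.79 over 8 palm arrays. The ranges nearly coincided and the difference was −0.099 ± 0.12 (limma, adjusted p = 0.853). None of 9 tested folate one-carbon genes passed, with a median difference of 0.13. Amt, the aminomethyltransferase of the glycine cleavage system, had the smallest p among them and differed by 0.45 ± 0.17 (limma, adjusted p = 0.316).

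**Figure D3:**
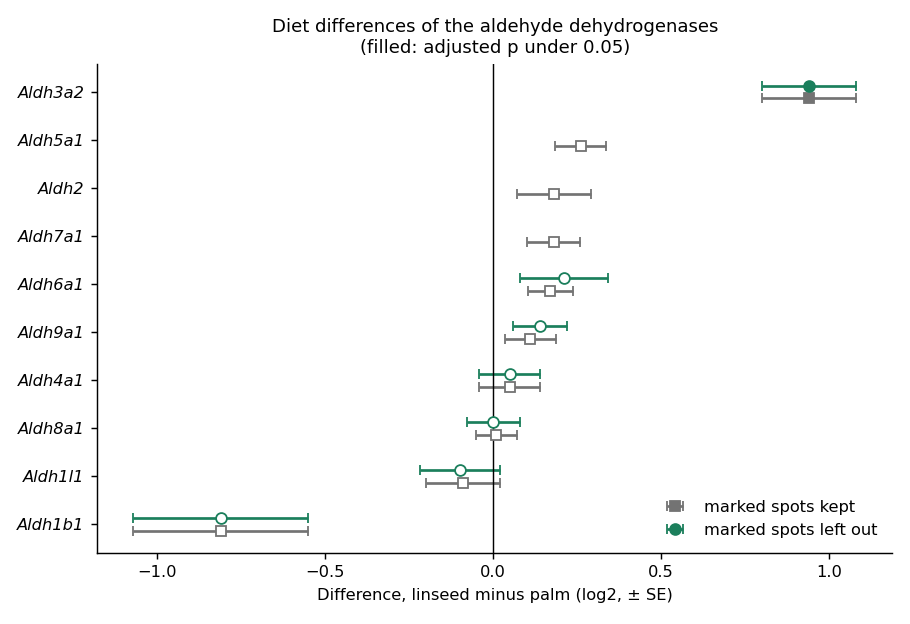
Difference of each aldehyde dehydrogenase, linseed minus palm (log2, ± SE), with marked spots left out (circles) and kept (squares); filled symbols have an adjusted p under 0.05. Aldh3a2 at 0.94 is the only filled symbol, Aldh1b1 lies at −0.81, and the other 8 genes lie between −0.099 and 0.26.

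Apart from Aldh3a2 and Aldh1b1, the differences were small: with marked spots kept, 8 of the 10 genes differed by less than 0.3 in size. In that fit 8 were positive and 2 negative, with a median of 0.14 against −0.0017 for all genes, and 5 had an unadjusted p under 0.05, where 10.6% of all genes did. With marked spots left out, 5 of 7 were positive, with a median of 0.049 against −0.0038, and 2 had an unadjusted p under 0.05, where 10.2% of all genes did. Over all 12 pathway lists, 6 of 73 tested genes rose and 0 fell with marked spots left out. Of all genes 0.57% rose and 0.188% fell in that fit. With marked spots kept 7 of 92 rose, where 0.683% of all genes did. The median difference of the 73 was 0.08, against −0.0038 for all genes. The lists were chosen with earlier results of these data known, and these shares were not tested.

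**Figure D4:**
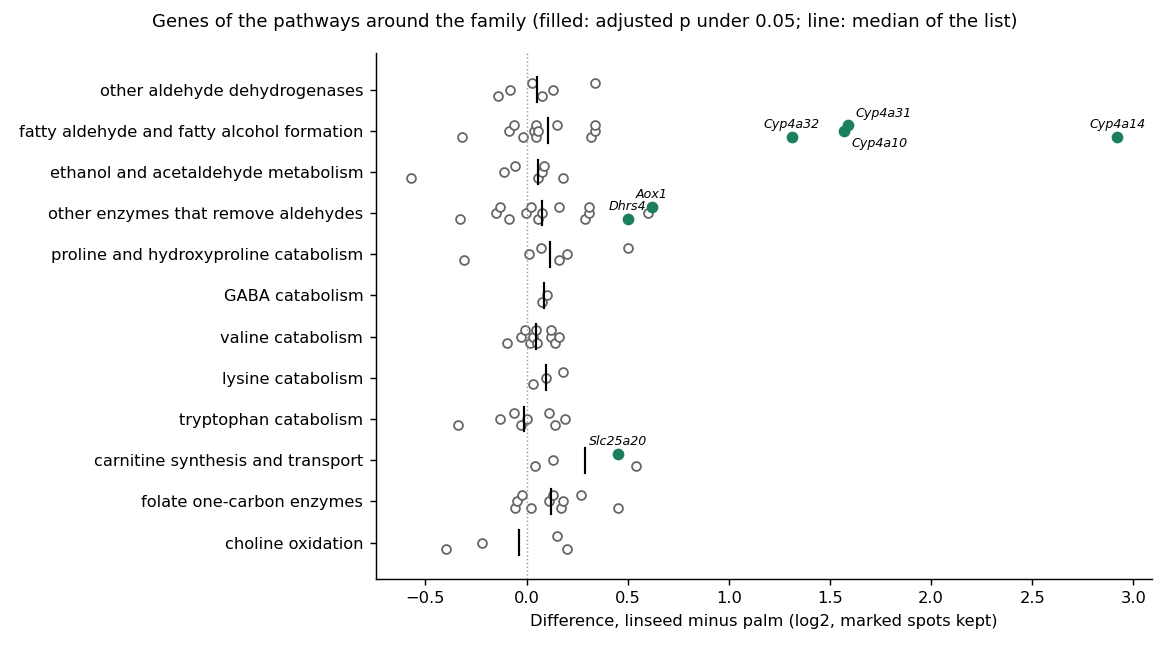
Differences of the genes in 12 pathway lists around the family, linseed minus palm (log2, marked spots kept), a point per gene and a line at each list's median. The 7 filled points (adjusted p under 0.05) are 4 Cyp4a genes between 1.31 and 2.92, Aox1 at 0.62, Dhrs4 at 0.50 and Slc25a20 at 0.45.

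Whether the change of Aldh3a2 differed from the changes of its relatives was tested directly. On each array the level of the other gene was subtracted from that of Aldh3a2, marked spots kept, and the diet labels were permuted exactly over all 43758 splits, with Benjamini-Hochberg adjustment over the 9 comparisons. The change of Aldh3a2 exceeded that of every other member. The smallest excess was over Aldh5a1, at 0.68 (exact permutation test, two-sided, adjusted p = 0.000118), and the largest over Aldh1b1, at 1.76 (adjusted p = 0.000206). The excess was 0.77 over Aldh2, 0.77 over Aldh6a1, 0.76 over Aldh7a1, 0.84 over Aldh9a1, 0.89 over Aldh4a1, 0.93 over Aldh8a1 and 1.03 over Aldh1l1, with adjusted p-values of 0.000118 to 0.00032. All 9 share the Aldh3a2 values and are not independent of each other. Aldh3a2 was the only member called on these same arrays, and the members were chosen with earlier results known. The comparisons therefore add no separate support for its rise.

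Arrays of one diet also differed among themselves, and several members moved together across them. Palm replicate 8 lay below its diet mean for 10 of 10 genes and palm replicate 5 for 9 of 10, each with a median deviation of −0.28. Palm replicate 6 lay below the mean for 0 of 10 and linseed replicate 3 for 1 of 10, and linseed replicate 3 was the highest array of its diet for 6 genes. Over the 18 arrays, after subtraction of the diet means, 42 of the 45 pairs of genes correlated positively, with a median r of 0.35 and a range of −0.14 to 0.78. The highest values were 0.78 for Aldh1l1 with Aldh5a1, 0.77 for Aldh5a1 with Aldh7a1 and 0.77 for Aldh6a1 with Aldh7a1. Aldh3a2 correlated at 0.62 with Aldh6a1, at 0.61 with Aldh5a1 and at 0.074 with Aldh1b1. All points share an array, its RNA and its scaling, and no such values for pairs of genes outside the family are given beside them. In the plot of deviations the columns of palm replicates 5 and 8 are mostly blue.

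**Figure D5:**
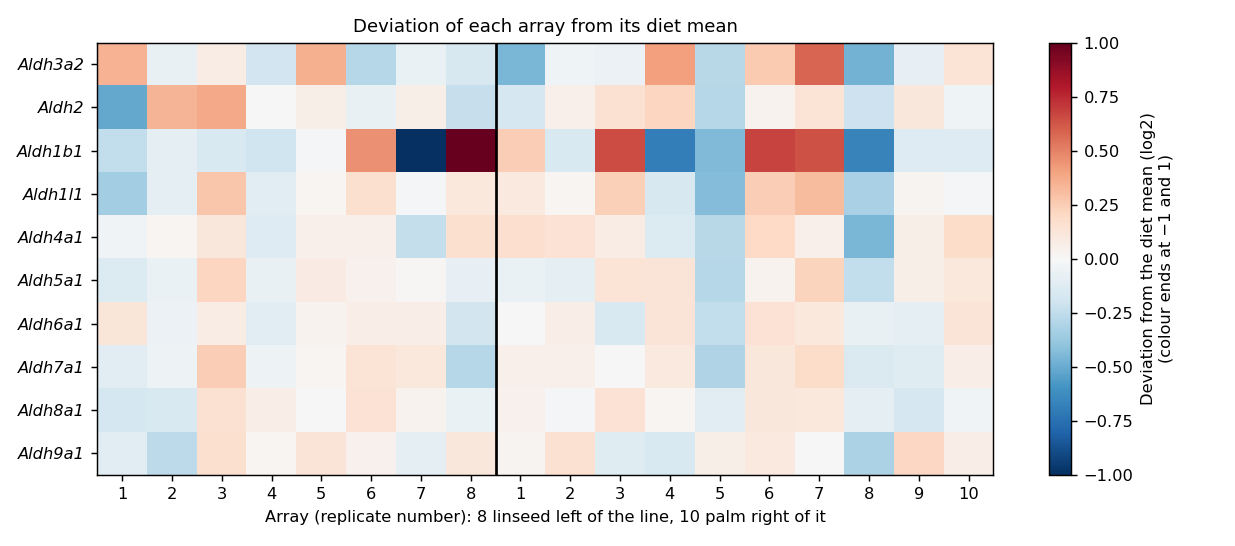
Deviation of each array from its diet mean (log2, marked spots kept), genes in rows and arrays in columns, 8 linseed arrays left of the line and 10 palm arrays right of it. Palm replicate 8 is below the mean for 10 of 10 genes and palm replicate 5 for 9 of 10, and the deepest colours are those of Aldh1b1.

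Among 13387 genes with a symbol, those whose levels followed Aldh3a2 most closely over the 18 arrays were Abcc3 (r = 0.96), Vnn1 (0.93), Pafah2 (0.92), Hadh (0.91), Hsd17b4 (0.89) and Cyp3a59 (0.88). All 6 passed the diet comparison with marked spots kept, where 0.901% of all genes did, with differences of 0.30 to 1.48. They were picked by levels that include the diet difference of Aldh3a2, so their passing is not a separate result. After the diet means were subtracted, the closest were Abcc3 (r = 0.86), Harbi1 (0.83), Gstk1 (0.80), Stau2 (0.80), Vnn1 (0.79) and Hadh (0.77). Abcc3 (an exporter of organic anions), Vnn1 (a pantetheinase) and Hadh (a mitochondrial beta-oxidation enzyme) stood in both sets. Harbi1, Gstk1 and Stau2 differed between diets by 0.032, 0.18 and 0.10, and none of them passed.

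Markers of other cells were set beside these results. Of the 6 adipocyte markers 2 could be tested, Cfd at 2.54 ± 0.88 and Cidea at 1.34 ± 0.91, and neither passed (limma, adjusted p = 0.278 and 0.667). The mean level of the tested adipocyte markers ran from −2.01 to 3.22 over linseed arrays and from −3.90 to 1.52 over palm arrays. Lep was well above background on no array, and Adipoq and Retn on 3 linseed arrays and 1 palm array each. The part of adipose tissue in the results was not tested. None of the tested markers of Kupffer cells, neutrophils, lymphocytes, stellate, endothelial, bile duct, erythroid or pancreatic acinar cells passed. Of 6 listed for each, only 2 lymphocyte, 2 erythroid, 3 acinar, 4 neutrophil and 4 bile duct markers were tested. With marked spots left out, 0 differences were positive among the tested acinar, neutrophil, bile duct, lymphocyte and erythroid markers. Positive differences numbered 1 of 6 for Kupffer cells, 2 of 5 for stellate cells and 3 of 6 for endothelial cells. The largest acinar difference in size was that of Cela2a, at −1.29 ± 0.49 (limma, adjusted p = 0.338). Cela2a was well above background on 2 linseed and 9 palm arrays.

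RefSeq promoter windows of GRCm38.p6, 250 bases before to 50 after a gene's start, were found for 8 of the 10 genes (9 windows, Aldh6a1 having 2). The stretch before the start of Aldh3a2, chr11:61267187-61267436 on the minus strand, is shown because this gene rose, with a GC box (GGGCGG), an E-box (CACGTG) and a CCAAT box (CCAAT) in capitals.
Aldh3a2 promoter: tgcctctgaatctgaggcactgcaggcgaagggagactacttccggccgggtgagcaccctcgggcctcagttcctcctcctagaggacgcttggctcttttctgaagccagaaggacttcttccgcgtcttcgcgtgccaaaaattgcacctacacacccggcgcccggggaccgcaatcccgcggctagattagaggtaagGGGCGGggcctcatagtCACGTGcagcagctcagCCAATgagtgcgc
They begin at −47, −30 and −13 from the start and do not overlap. Searched on both strands, CACGTG was found in the window of Aldh3a2 alone among the members and in 7.15% of all 32851 windows. GGGCGG was in those of Aldh3a2, Aldh1b1 and Aldh1l1 (35.7% of all), and CCAAT in 8 of the 9 (37.4% of all). The direct repeat AGGTCANAGGTCA, a motif of PPAR-alpha with its partner receptor, was in none of the 9 and in 0.0396% of all windows. Its single copy AGGTCA was in those of Aldh1l1 and Aldh6a1 (16.3% of all), and TGACNNNGC, the core of the antioxidant response element, in that of Aldh9a1 (12.4% of all). These matches are letters in a short window, and binding was not measured.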

How the data were processed

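Total RNA of 18 livers (1 µg each, Cy3) was measured on 1-colour Agilent arrays, per the labels' protocols. Spot intensity was read out by the authors in Agilent's Feature Extraction software, version 9.5.3.1, per the file headers, and its processed signal has the local background removed and no scaling between arrays. The log2 values of the deposited table of the authors (18060 probes, array medians 7.85) served as an alternative only; how they were scaled was not stated in the labels, while direction followed the spot signals (rank correlation 0.99998 to 1.00). Feature Extraction 9.5 and limma are the tools in the submitters' processing notes.

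Each level is the log2 processed signal less the 75th percentile of its array over non-control spots. Spots marked as non-uniform or population outliers were then left out; keeping them was an alternative, used for members they kept from being tested. A probe needed to be well above background on 8 arrays and to have a value on 6 arrays per diet, and the brightest such probe stood for a gene. Diets, taken from the titles, were compared over all genes by lmFit and eBayes of limma 3.58.1 under R 4.3.3, two-sided and without covariates, with Benjamini-Hochberg adjusted p under 0.05. Aldh3a2 was set against other members with exact permutation tests (numpy 2.4.6 and scipy 1.17.1). Fits and permutations were tested on simulated data. The labels number the livers of a diet as replicates and say no more of them, so p-values measure the spread between these 18 samples, and the number of arrays limits the precision.

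The members and the gene lists were chosen with earlier results of these data known. Named genes are the 10 members, the called genes of each list (or the one with the smallest p) and the 6 genes most like Aldh3a2; other genes named from the lists were chosen after their values were seen. Probe names were updated through RefSeq (GRCm38.p6), 26055 by accession, 3195 by symbol and 930 by synonym, with 9249 keeping the file's name. The replicate number was tried as a block; same-numbered arrays did not deviate together in every pair.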

Additional observations from a re-analysis of the deposited data

Results flagged for a closer look

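One value stood apart from its group, by Dixon's limit on the gap between an extreme array and its neighbour. The dimmer probe of Aldh7a1 read −6.03 on palm replicate 8, against −4.50 on the next lowest palm array, a gap of 0.662 of the group's range where 0.466 is the limit for 10 arrays. That probe was well above background on 3 linseed and 4 palm arrays and entered no test. Chance flags about 1 in 20 groups, and 36 groups were examined.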

How the results depend on the processing

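Aldh3a2 kept its direction in all 34 alternatives, with differences of 0.80 to 1.07, and its call in 33 (adjusted p of 0.000891 to 0.0903 over the 34). The exception was the replicate block, with a difference of 0.95 and an adjusted p of 0.0903. Whether the numbers pair the arrays is not stated in the labels and was not settled here. After the diet means, same-numbered arrays of replicates 1 to 5 correlated at 0.246 to 0.5. Each of these pairs shared a slide (assumed for replicate 5). Those of replicates 6, 7 and 8 correlated at 0.00123, 0.0943 and −0.239. Of 8 linseed arrays 2 correlated best with their own number. Under that block 18 genes were called in all, with 0 of the tested members and 0 list genes.

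The number of genes called was 121, but 42 with the percentile over unmarked spots, 44 without a filter on dim probes, 200 with slide as a random block, 186 with slide as a fixed block and marked spots kept, 22 without slides 4 and 5 and 30 without slide 1 (the last 2 chosen after seeing the data), and 51 to 142 with an array left out. List genes called numbered 6, but 3 with the percentile over unmarked spots, without a filter, without slides 4 and 5 and without slide 1. They numbered 7 with marked spots kept, 8 with slide as a fixed block and marked spots kept, and 8 in the authors' table. The range was 4 to 6 with an array left out. With an array left out, 1 to 2 members were called, and 0 to 1 other than Aldh3a2, the addition being Aldh1b1 without linseed replicate 8 (−0.99).

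Aldh4a1 turned to −0.0024 without palm replicate 8 and reached 0.083 without linseed replicate 7. Aldh8a1 turned to −0.037 with the percentile over unmarked spots, −0.025 with quantile normalization, −0.055 with normexp, −0.00081 with slide as a fixed block (−0.00038 with marked spots kept), −0.018 under the replicate block, −0.034 in the authors' table, −0.046 without slides 4 and 5, and −0.0036, −0.019 and −0.018 without palm replicates 2, 5 and 8, and reached 0.022 without palm replicate 3. Other members kept their sign. Aldh1l1 did so over the 27 alternatives that could test it. Aldh2, Aldh5a1 and Aldh7a1 did so over 31 alternatives with marked spots kept, a choice made after seeing the data. The values of Aldh6a1 come from either of its 2 probes, depending on the setting. The 9 excesses of Aldh3a2 passed in all 23 alternatives tried (exact permutation test, adjusted p up to 0.00311). The causes were not tested.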
